A study of Mus musculus with 20 samples.

Results

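The accessible chromatin of cells sorted as cardiac fibroblasts 7 days after myocardial infarction (MI) was compared with that of cells sorted in the same way from uninjured mouse hearts. The comparison used the ATAC-seq peak lists of 4 of the 20 libraries of the series, 2 from day 7 and 2 from uninjured hearts. Overlapping peaks of the 4 lists were merged into 114484 regions. A region was called gained where both day 7 lists and neither uninjured list held a peak, which gave 14170 regions, and lost in the reverse case, which gave 3612 regions.

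All cells were sorted as eGFP-positive fibroblasts of the Tcf21 lineage, by flow cytometry against an eGFP-negative wild-type gate. Sorting does not show that every cell was a fibroblast, and RNA levels of markers of other cell types are given below. A MerCreMer recombinase had been switched on with tamoxifen (75 mg/kg per day for 5 days) in both groups, so the uninjured mice carried the same label and had the same drug. The label marks cells in which Tcf21 was active at the time of tamoxifen, and their descendants. Nuclei were treated with the transposase Tn5, which cuts and tags open DNA. RNA-seq libraries made from 10000 cells sorted in the same way, 2 from day 7 and 2 from uninjured hearts, gave a second readout that played no part in choosing the regions. The labels give neither the age nor the number of the mice behind a library. They do not say that replicates were separate mice, so each p below reflects only how far these libraries differ from each other.

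Chromatin opens where transcription factors and their partners displace nucleosomes, mostly at promoters, which lie at gene starts, and at enhancers, which can lie far from the gene they act on. After an infarct, fibroblasts of the heart leave their resting state, divide, and become myofibroblasts that secrete collagen and contract the wound. In this transition AP-1, RUNX, TEAD, SMAD and SRF family factors are known to act on enhancers of matrix and contractile genes. TCF21 is a transcription factor of the resting fibroblast. ATAC-seq peaks show where chromatin was open in the sorted population as a whole. In such bulk samples a change in the share of a cell type and a change within each cell cannot be told apart, for peaks as for RNA.

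The gene starts that lay inside gained regions are shown first, because there the region and the gene it belongs to need no assignment by distance. Of 338 coding genes with a RefSeq start in a gained region, 193 were tested in RNA. Of these, 29 were higher at day 7 and 1 was lower at an adjusted p under 0.05 (edgeR's quasi-likelihood test, Benjamini-Hochberg over all genes). Some of the 193 had no counts in either uninjured library and could pass the filter on low counts only through libraries in which they were high, so the count is a description. Over all 14968 genes tested, 4.39% were higher and 2.76% lower, and by DESeq2 7.74% were higher and 6.1% lower. Printed below are the 250 bases upstream of the start of the 6 such genes whose region was also gained with equal peak numbers, and whose RNA call held with each day 7 and uninjured RNA library left out in turn. This choice was made after their values were seen. The sequences are those of the RefSeq promoter table for GRCm38.p6, 5′ to 3′ on the strand of the gene. Capitals mark matches, on either strand, to 7 motifs: AP-1 (letters TGANTCA), RUNX (letters TGTGGTT), the PU.1 type of ETS motif (letters GAGGAAGT), IRF, C/EBP (letters TTGCNNAA), the motif of GATA factors (letters AGATAA) and the E-box preferred by TCF21 (letters CAGCTG). The windows are chr5:104434861-104435110 on the plus strand for Spp1, chr10:117282273-117282522 on the minus strand for Lyz2, chr17:34287824-34288073 on the minus strand for H2-Aa, chr14:75130873-75131122 on the plus strand for Lcp1, chr16:95459349-95459598 on the minus strand for Erg and chr9:21337578-21337827 on the plus strand for Slc44a2. Each window lay wholly inside its gained region except that of Slc44a2, whose start lay in the region but most of the window outside it.
Spp1: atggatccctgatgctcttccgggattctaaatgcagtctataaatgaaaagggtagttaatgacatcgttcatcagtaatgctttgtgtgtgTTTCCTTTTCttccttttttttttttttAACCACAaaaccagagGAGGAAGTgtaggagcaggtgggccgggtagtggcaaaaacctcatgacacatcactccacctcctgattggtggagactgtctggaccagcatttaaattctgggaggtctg
Lyz2: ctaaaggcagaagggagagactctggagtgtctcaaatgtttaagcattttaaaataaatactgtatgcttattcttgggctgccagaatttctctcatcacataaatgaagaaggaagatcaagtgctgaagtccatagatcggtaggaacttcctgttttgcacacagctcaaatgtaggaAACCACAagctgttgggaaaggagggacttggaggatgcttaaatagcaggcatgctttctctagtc
H2-Aa: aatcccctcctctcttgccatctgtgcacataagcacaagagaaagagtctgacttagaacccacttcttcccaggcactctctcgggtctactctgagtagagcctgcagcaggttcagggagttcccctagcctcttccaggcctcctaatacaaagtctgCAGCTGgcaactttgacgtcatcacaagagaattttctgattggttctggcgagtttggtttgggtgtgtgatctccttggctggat
Lcp1: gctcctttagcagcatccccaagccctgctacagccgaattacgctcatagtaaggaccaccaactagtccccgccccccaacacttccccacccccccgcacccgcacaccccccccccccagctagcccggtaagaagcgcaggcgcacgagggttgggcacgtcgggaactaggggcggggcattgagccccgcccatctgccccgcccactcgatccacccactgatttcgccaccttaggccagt
Erg: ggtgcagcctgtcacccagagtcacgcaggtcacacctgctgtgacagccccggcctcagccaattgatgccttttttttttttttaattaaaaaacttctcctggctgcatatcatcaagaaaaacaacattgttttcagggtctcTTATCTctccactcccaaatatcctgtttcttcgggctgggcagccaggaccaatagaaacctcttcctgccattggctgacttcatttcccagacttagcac
Slc44a2: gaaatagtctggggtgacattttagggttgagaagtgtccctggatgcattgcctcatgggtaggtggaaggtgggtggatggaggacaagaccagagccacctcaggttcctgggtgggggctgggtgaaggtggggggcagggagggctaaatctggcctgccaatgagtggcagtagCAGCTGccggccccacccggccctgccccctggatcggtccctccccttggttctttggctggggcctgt

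The Spp1 window held an IRF, a RUNX and a PU.1-type ETS match, and that of Lyz2 a RUNX match. The windows of H2-Aa and Slc44a2 each held a CAGCTG E-box, and that of Erg a GATA match. None of the 7 motifs was found in the Lcp1 window, which says only that these letters are not in it. In all, 20 motifs were searched. Of those not marked, the Lcp1 window matched the TWIST type of E-box, KLF/SP and NRF1. Spp1 encodes osteopontin, a secreted matrix phosphoprotein made by activated macrophages and mesenchymal cells. Its start region had a fold enrichment, the height of the peak over the background that the authors' caller used, of 4.56 and 5.96 in the day 7 lists and no peak in the uninjured lists. Its RNA stood at 579 and 670 CPM, counts scaled by the effective library size, at day 7, against 33.6 and 22 CPM in uninjured cells, a log2 fold change of 4.49 ± 0.32 (SE; edgeR adjusted p = 1.2e-05). Lyz2 and Lcp1, which encode a lysozyme and an actin-bundling protein of leukocytes, and H2-Aa, which encodes an MHC class II chain, are genes of myeloid or antigen-presenting cells. Their log2 fold changes were 5.54, 5.36 and 4.31. Lyz2 shares sequence with its neighbour Lyz1, so reads may be split between these copies.

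Erg encodes an ETS-family transcription factor of endothelial cells, and its printed start is one inside the gene. Erg RNA stood at 25.2 and 45.9 CPM at day 7, against 0.373 and 1.18 CPM in uninjured cells, and both day 7 values lay above both uninjured values. Slc44a2, which encodes a choline transporter, had 225 and 281 CPM at day 7, against 96.7 and 76.6 CPM. Other starts in regions gained with equal peak numbers belonged to Acan, which encodes the cartilage proteoglycan aggrecan, to Il1rl1, which encodes the interleukin-33 receptor, and to Tm4sf1, which encodes a membrane protein of the tetraspanin-like L6 family. Acan had 27.2 and 11.8 CPM at day 7, against 0.906 and 0.107 CPM in uninjured cells, but the call was lost without any 1 of the 4 RNA libraries. Il1rl1 had 5.17 and 5.91 CPM at day 7 and 0 CPM in both uninjured libraries, a call that did not hold when either uninjured library was left out. Tm4sf1 had 763 and 1100 CPM at day 7, against 396 and 387 CPM, a call lost without day 7 replicate 2 or uninjured replicate 2. The single gene with a gained start and lower RNA was Spin1, which encodes a reader of histone methylation, at 77.4 and 42.1 CPM at day 7, against 131 and 145 CPM, a call also lost without 3 of the 4 libraries.

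Few gene starts lay in lost regions. Of 19 coding genes with such a start, 11 were tested in RNA, 2 were lower at day 7 and 0 were higher. The windows shown are those of these 2 genes, of C7, the one with the highest RNA level among them, and of Olfr520, whose region was the highest of the lost regions that were assigned to a gene and also lost with equal peak numbers. C7 was chosen after its values were seen. The windows are chr16:22891765-22892014 on the plus strand for Ahsg, chr3:113574763-113575012 on the minus strand for Amy1, chr15:5063774-5064023 on the minus strand for C7 and chr7:99734895-99735144 on the plus strand for Olfr520.
Ahsg: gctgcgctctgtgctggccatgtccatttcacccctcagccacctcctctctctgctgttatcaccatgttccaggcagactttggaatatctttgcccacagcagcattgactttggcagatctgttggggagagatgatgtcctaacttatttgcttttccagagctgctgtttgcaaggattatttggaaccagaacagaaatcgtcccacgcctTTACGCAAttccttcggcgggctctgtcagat
Amy1: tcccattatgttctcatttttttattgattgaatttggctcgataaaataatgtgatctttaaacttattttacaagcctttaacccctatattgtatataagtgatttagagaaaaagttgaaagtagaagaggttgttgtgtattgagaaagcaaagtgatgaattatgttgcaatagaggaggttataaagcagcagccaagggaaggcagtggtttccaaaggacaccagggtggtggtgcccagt
C7: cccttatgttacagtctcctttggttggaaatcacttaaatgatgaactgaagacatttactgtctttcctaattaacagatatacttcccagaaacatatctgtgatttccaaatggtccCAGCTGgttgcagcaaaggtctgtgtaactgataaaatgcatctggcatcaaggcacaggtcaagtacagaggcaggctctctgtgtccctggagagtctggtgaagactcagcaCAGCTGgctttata
Olfr520: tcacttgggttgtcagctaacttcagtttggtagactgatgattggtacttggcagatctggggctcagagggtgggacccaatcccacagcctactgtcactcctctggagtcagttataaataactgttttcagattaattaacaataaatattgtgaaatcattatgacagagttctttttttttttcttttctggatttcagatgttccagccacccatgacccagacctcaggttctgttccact

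The Ahsg window held a C/EBP match and that of C7 held 2 CAGCTG E-boxes, while none of the 7 motifs was found in those of Amy1 and Olfr520. C7 encodes a component of the terminal complement complex and is expressed by resting fibroblasts. The lost region at its start had a fold enrichment of 8.74 and 9.27 in the uninjured lists. C7 RNA stood at 37.8 and 14.5 CPM at day 7, against 434 and 202 CPM in uninjured cells. The groups did not overlap, but the log2 fold change of −3.60 did not pass (edgeR adjusted p = 0.086). Ahsg, which encodes the serum glycoprotein fetuin-A, had 3.25 and 2.29 CPM at day 7, against 37.6 and 17.5 CPM, a call lost without 3 of the 4 libraries. Amy1, which encodes an amylase, had 0.246 and 4.76 CPM at day 7, against 30.7 and 27.6 CPM, a call that did not hold when either uninjured library was left out, and it has near-identical copies among which reads may be split. The start of the chemokine gene Ccl8 also lay in a lost region, and its RNA stood at 19.3 and 16.5 CPM at day 7, against 16.3 and 21.0 CPM, so the groups overlapped.

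Over all 21263 coding starts with a RefSeq window, the searched letters were found in 6.1% of windows for AP-1, 3.8% for RUNX, 2.2% for PU.1-type ETS, 3.0% for IRF, 9.1% for C/EBP, 8.8% for GATA and 12.1% for the CAGCTG E-box. CAGCTG overlaps longer E-box motifs, and the matches are descriptions of the letters only. AP-1 was matched in 7.7% of 365 windows at starts in gained regions, in 9.5% of 21 at starts in lost regions, in 4.1% of 12658 at starts open in all 4 lists and in 9.2% of 7619 outside any region. The PU.1-type ETS motif was matched in 4.9% of windows at gained starts, against 0.0% at lost starts, 2.1% at starts open in all 4 lists and 2.3% outside any region. The E-box CAGCTG was matched in 18.1% of gained, 28.6% of lost, 11.9% of always open and 12.1% of other windows. Of the motifs not marked, TEAD was matched in 1.6% of windows at gained starts, against 2.8% of all windows. The SMAD motif was matched in 18.1%, against 15.2%, and the CArG box of SRF in 0.5%, against 1.4%. The KLF/SP letters GGGCGG were matched in 37.8% of gained, 14.3% of lost, 61.4% of always open and 12.2% of other windows. With equal peak numbers 208 windows lay at gained starts. In these the shares were 8.2% for AP-1, 3.4% for PU.1-type ETS, 19.2% for CAGCTG and 1.4% for TEAD. For SMAD, CArG and KLF/SP they were 16.3%, 1.4% and 37.0%. The CArG shares at gained starts rest on 2 windows with all peaks and 3 with equal peak numbers. The median GC content was 56.0% at gained starts, 50% at lost starts, 60.8% at always open starts and 46.4% outside regions. The part of base composition in the motif shares was not tested.

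At the scale of the whole lists, gained regions outnumbered lost regions when all deposited peaks were used, and did not when the lists were cut to one size. Gained regions made up 12.4% and lost regions 3.16% of the 114484 merged regions, a ratio of 3.92. The day 7 lists held 93724 and 88332 peaks and the uninjured lists 63901 and 71909, so each day 7 list was longer than each uninjured list. With the 63901 highest peaks of each list, 6985 regions were gained and 6750 lost, a ratio of 1.03 among 86071 regions (8.12% and 7.84%). The excess of gained regions thus moved with list length, and the lists do not give the number of reads behind them. Of the 14170 gained regions 6212, or 43.8%, were gained in both ways, and of the 3612 lost regions 3034, or 84.0%, were lost in both ways. The cut left the list of uninjured replicate 1 whole and shortened the others, the day 7 lists most. A shorter day 7 list cannot end the loss of a region. The shares of 43.8% and 84.0% are thus not comparable, and the second is largely set by how the cut was made. Of the 6750 regions lost with equal numbers, 3716 had a peak in at least 1 complete day 7 list.

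**Figure D1:**
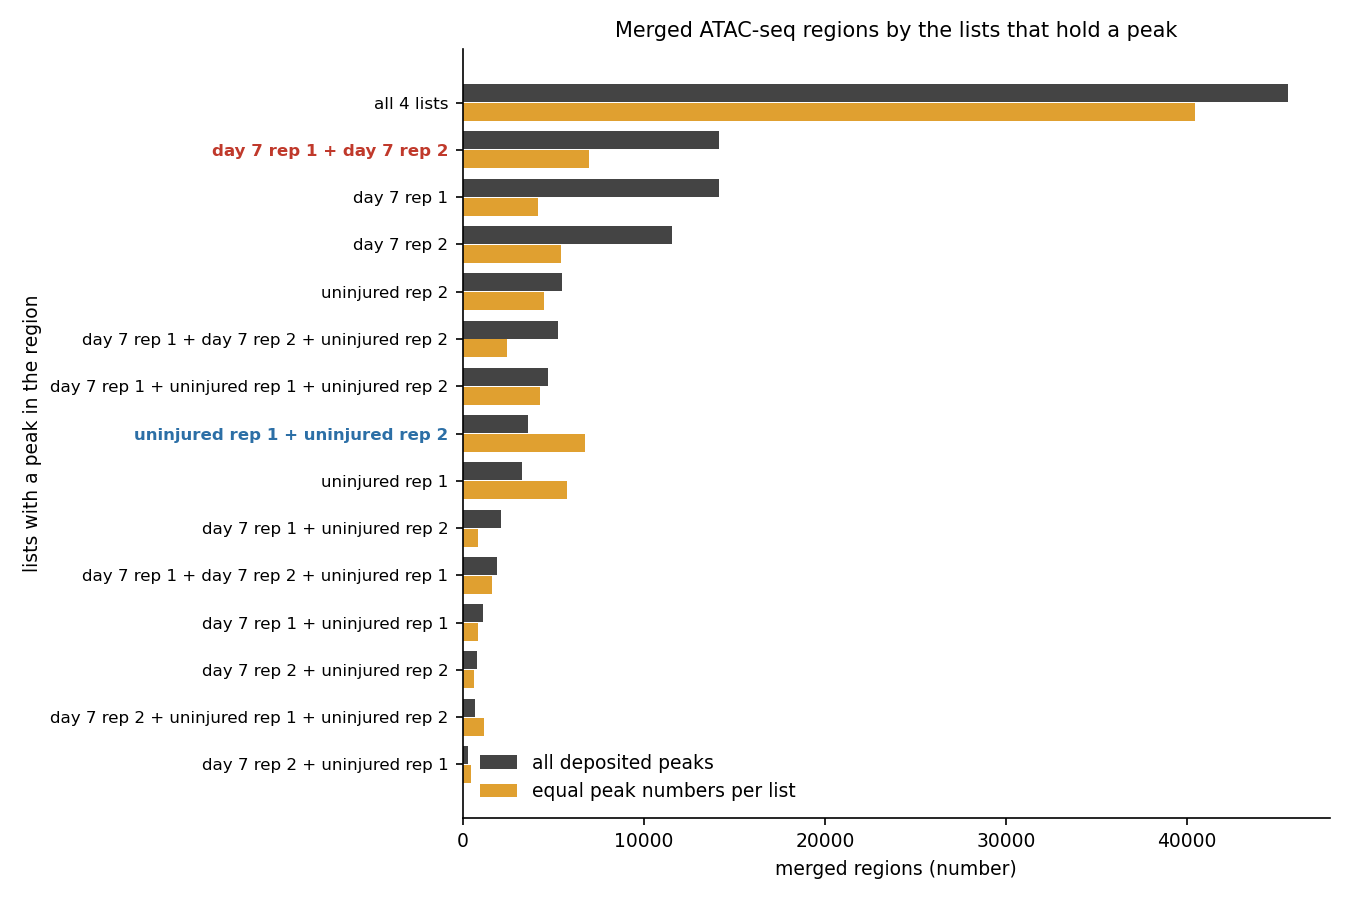
Number of merged regions (horizontal axis) for each combination of lists that hold a peak (vertical axis; rep is replicate), with all deposited peaks (dark bars) and with equal peak numbers per list (light bars). The combination of both day 7 lists fell to 6985 regions with equal numbers, against 14170 with all peaks, while that of both uninjured lists was 6750 with equal numbers, against 3612 with all peaks.

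Many regions were held by a single list. Day 7 replicate 1 alone held 14161 regions and day 7 replicate 2 alone 11523, while uninjured replicate 1 alone held 3247 and uninjured replicate 2 alone 5471. All 4 lists shared 45607 regions, or 39.84%. The Jaccard index, the length shared by a pair of lists over their joint length, was 0.614 between the day 7 lists, 0.690 between the uninjured lists and 0.509 to 0.575 between a day 7 and an uninjured list. Each day 7 list thus shared more with the other day 7 list than with either uninjured list. Day 7 replicate 1 shared slightly more with both week 2 lists (0.639 and 0.641) and with a day 3 list (0.630), and day 7 replicate 2 with both week 2 lists (0.623 and 0.619), than the day 7 lists shared with each other. The library code of day 7 replicate 2 begins with B and those of the other 3 libraries with A, and what the letter stands for is not given in the labels.

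Gained and lost regions were low and narrow beside the shared regions. The median fold enrichment of gained regions was 4.29 and 3.97 in the day 7 lists, and that of lost regions 4.68 and 4.38 in the uninjured lists. Regions open in all 4 lists had medians of 12.35 and 9.68 in the day 7 lists and of 12.17 and 12.61 in the uninjured lists. The median width was 968 bases for gained, 989 for lost and 2189 for shared regions. Fold enrichment reached 10 in 3.27% and 2.46% of gained regions in the day 7 lists and in 3.29% and 3.65% of lost regions in the uninjured lists. The lowest peak had a fold enrichment of 2.42 and 2.48 in the day 7 lists and of 2.81 and 2.57 in the uninjured lists. In each list every fold enrichment was a whole multiple of 1 step, within 0.02 of a step, and each value came with a single p, so peaks of a list were ranked alike by fold and by p.

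Changed regions were spread over the genome away from gene starts. A RefSeq start lay within 1 kb of 5.73% of gained regions, 2.93% of lost regions and 26.94% of regions open in all 4 lists, outside chromosome 18, for which the start table holds no entry. The median distance to the nearest start was 23820 bases for gained, 32394 for lost and 14774 for shared regions. Inside a coding gene lay 49.8% of gained, 55.4% of lost and 65.3% of shared regions. A further 20.6% of gained and 22.7% of lost regions lay more than 50 kb from any coding gene and were assigned to none, against 13.3% of shared regions. The share of gained regions was 11.3% to 13.7% on each autosome and 9.4% on the X chromosome. On the Y chromosome 23 of 84 regions were gained and 0 lost. The lists held 63 and 82 peaks there at day 7, against 19 and 31 in uninjured hearts, and without this chromosome 14147 regions were gained and 3612 lost.

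The regions were then looked up in the 6 lists of other times, which the rule had not used. Gained regions were present there in falling shares from day 3 to week 4. A peak lay in 75.0% and 77.6% of gained regions in the day 3 lists, 57.5% and 53.8% in the week 2 lists and 31.6% and 37.1% in the week 4 lists. Of the 14170 gained regions 9731 had a peak in both day 3 lists, 1890 had one in all 6 lists and 664 in none of them. For lost regions the shares were 58.2% and 51.7% at day 3, 22% and 27.4% at week 2 and 28.3% and 22.4% at week 4. Thus the lists of day 3 held more than 1 in 2 of the regions lost at day 7, and those of week 4 held fewer. Regions open in all 4 lists had a peak in 92.7% to 99.4% of cases. The day 3 lists were the longest, at 105695 and 107798 peaks, and those of week 4 had 69238 and 70195, so list length fell with the shares for gained regions, and its part in them was not tested.

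**Figure D2:**
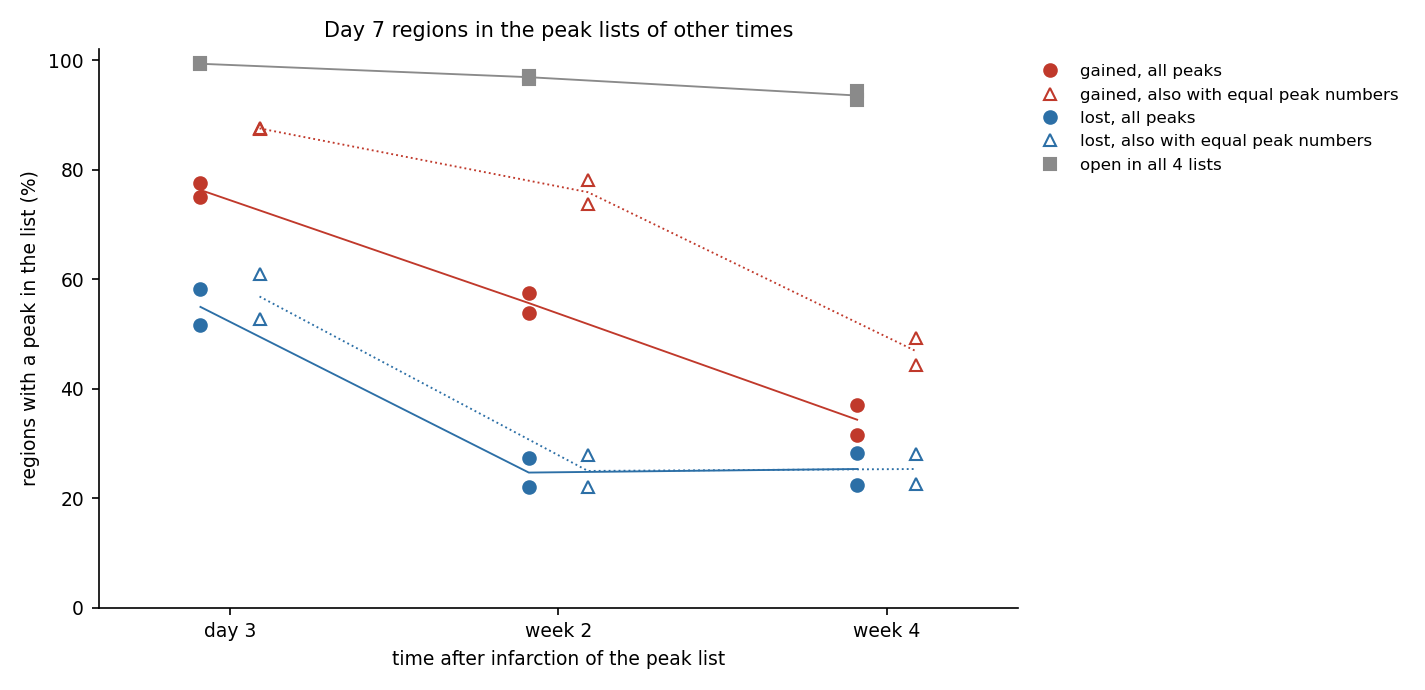
Share of regions (vertical axis, %) with a peak in each of the 2 lists of day 3, week 2 and week 4 (horizontal axis); each symbol is a list, lines join the means of the 2 lists, filled circles are all gained or lost regions, open triangles those also gained or lost with equal peak numbers, and squares regions open in all 4 lists. Gained regions fell to 31.6% and 37.1% at week 4, and lost regions stood at 22% to 28.3% at week 2 and week 4.

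Among regions also gained with equal peak numbers, 87.5% and 87.6% had a peak at day 3, 78.1% and 73.7% at week 2 and 44.4% and 49.3% at week 4. These are the taller gained regions, and each of these shares lay above that of all gained regions in the same list. For regions also lost with equal numbers the shares were 60.9% and 52.8%, 22.1% and 27.9%, and 28.1% and 22.6%, close to those of all lost regions.

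RNA gave an independent readout of the genes near these regions. Each region was assigned to the coding gene it lay in, or to the one with the nearer end within 50 kb. Of 4019 tested genes with gained regions only, 280 (6.97%) were higher at day 7 and 75 (1.87%) lower, with a median log2 fold change of 0.19. Of 826 tested genes with lost regions only, 16 (1.94%) were higher and 85 (10.29%) lower, with a median of −0.45. Of 838 genes with both kinds 28 were higher and 67 lower. Of 7325 genes with regions but neither kind, 295 (4.03%) were higher and 172 (2.35%) lower, close to the 4.39% and 2.76% over all genes. With equal peak numbers, 167 of 1985 genes with gained regions only were higher and 29 lower, 50 of 1817 genes with lost regions only were higher and 157 lower, and of 899 genes with both kinds 44 were higher and 47 lower.

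The shares grew with the number of gained regions. Of genes without a lost region, 5.06% of those with 1 gained region were higher in RNA, 8.01% of those with 2 to 3, 10.64% of those with 4 to 6 and 30.43% of those with 7 or more. In the last class 28 of 92 genes were higher, 0 were lower and the median log2 fold change was 1.23. Of genes without a gained region, 7.1% of those with 1 lost region were lower, 21.26% of those with 2 and 20% of the 65 with 3 or more. Gene length was not taken into account, and its part in these shares was not tested. Seen from the RNA, 46.9% of the 657 genes that were higher had a gained region, against 32.4% of all genes tested and 34.4% of the 413 that were lower. A lost region lay at 6.7% of the genes that were higher and at 36.8% of those that were lower, against 11.1% of all genes tested.

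**Figure D3:**
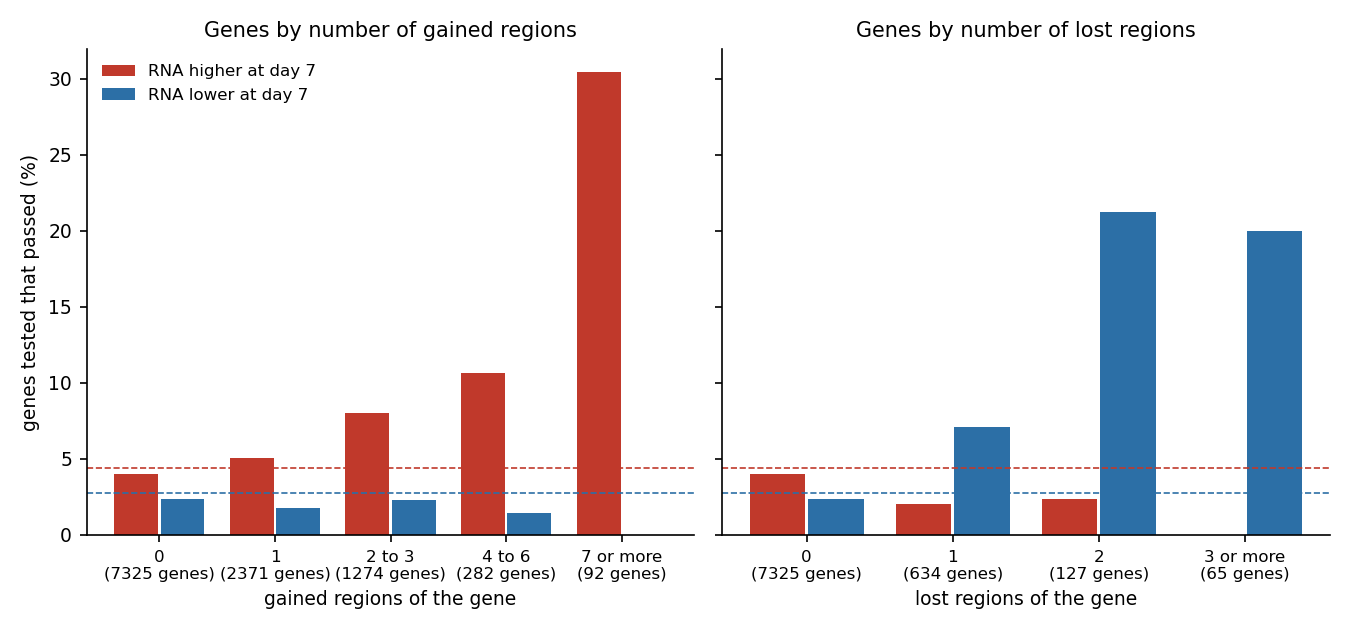
Share of tested genes whose RNA passed as higher or lower at day 7 (vertical axis, %), by the number of gained regions among genes without a lost region (left) and of lost regions among genes without a gained region (right); numbers of genes are in brackets and dashed lines give the shares over all genes tested, 4.39% higher and 2.76% lower. The share that was higher reached 30.43% at 7 or more gained regions, and the share that was lower 21.26% at 2 lost regions.

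Among the 10 genes with the most gained regions, 4 were higher in RNA. Of all genes tested 4.39% were higher, and of those with 7 or more gained and 0 lost regions 30.43%. Runx1, a RUNX-family transcription factor of blood and of activated mesenchymal cells (ENSMUSG00000022952, chromosome 16, 92601466 to 92826149), had 19 gained and 0 lost among 54 regions. With equal peak numbers it had 6 gained and 0 lost. The highest gained region, at 92620369 to 92626732 on chromosome 16, had a fold enrichment of 14.22 and 10.68 in the day 7 lists and was also present in all 6 lists of other times. Runx1 RNA stood at 79.0 and 84.4 CPM at day 7, against 18.1 and 7.5 CPM in uninjured cells, a log2 fold change of 2.67 ± 0.36 (SE; edgeR adjusted p = 0.00094). Fgfr2, a fibroblast growth factor receptor gene, also had 19 gained regions, of 77, or 9 with equal peak numbers. But it spans 130162451 to 133123350 on chromosome 7 in the deposited table, a stretch that holds other genes. Its RNA was low, at 8.46 and 1.21 CPM at day 7, against 1.49 and 1.29 CPM, and did not pass. Foxp1, a forkhead transcription factor gene, had 19 gained and 1 lost of 83 regions, or 9 gained and 4 lost with equal peak numbers. Foxp1 stood at 213 and 194 CPM at day 7, against 115 and 127 CPM, a call lost without any 1 of the 4 libraries.

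Erg followed with 13 gained and 0 lost of 31 regions, or 6 gained and 0 lost with equal peak numbers. Only 4 of its 31 regions were open in all 4 lists. Atxn1, which encodes a chromatin-binding repressor, had 13 gained and 0 lost of 61, with 11 gained with equal peak numbers, and stood at 98.3 and 115 CPM at day 7, against 47.8 and 41.2 CPM, a call lost without 3 of the 4 libraries. Chst11 (chondroitin sulfotransferase), Ank3 (an ankyrin), Cacna1c (a calcium channel subunit), Bcar3 (an adaptor of adhesion signalling) and Glis3 (a zinc-finger transcription factor) had 12 to 15 gained and 0 or 1 lost regions. None of these 5 passed in RNA, with log2 fold changes of 0.94 to 1.58. Many gained regions thus lay in genes whose RNA was low, at most 15.4 CPM in any of the 4 libraries for these 5.

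The genes with the most lost regions were led by Pcsk6, a proprotein convertase gene (ENSMUSG00000030513, chromosome 7, 65861734 to 66050386), with 10 lost and 2 gained of 49 regions. The highest lost region by the lower of its values, at 66015644 to 66017909, had a fold enrichment of 7.49 and 7.21 in the uninjured lists and a peak in 2 of the 6 lists of other times. Pcsk6 RNA stood at 104 and 81.7 CPM at day 7, against 428 and 639 CPM in uninjured cells, a log2 fold change of −2.53 ± 0.38 (SE; edgeR adjusted p = 0.0023), lost without day 7 replicate 2. Rora, which encodes a nuclear receptor, had 9 lost and 2 gained of 92 regions and 77.3 and 48.8 CPM at day 7, against 174 and 243 CPM. Akap12, a scaffold gene for protein kinase A, had 8 lost and 0 gained of 29 regions and 127 and 80.8 CPM at day 7, against 282 and 368 CPM. Scara5, a scavenger receptor gene and marker of resting adventitial fibroblasts, had 7 lost and 2 gained of 29 regions and 40.1 and 6.45 CPM at day 7, against 444 and 519 CPM. In all 3 both day 7 values lay below both uninjured values, and each call was lost without day 7 replicate 2 and without uninjured replicate 2, that of Scara5 also without uninjured replicate 1.

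The other 6 genes of that rank did not pass. The ubiquitin ligase gene Arih1, with 10 lost and 0 gained of 25 regions, stood at 29.4 and 24 CPM at day 7, against 25.5 and 33.5 CPM, and the groups overlapped. Ints6 (9 lost), the RNA-binding protein gene Rbms3 (9 lost, 5 gained), the kinase gene Hipk3 (8 lost) and the receptor phosphatase gene Ptprd (7 lost, 6 gained) had log2 fold changes of −0.99, −0.40, −0.31 and −0.17. Rtl1, an imprinted gene derived from a retrotransposon, had 8 lost and 0 gained of 27 regions, with 0 and 2 counts at day 7, against 11 and 4 counts in uninjured cells.

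**Figure D4:**
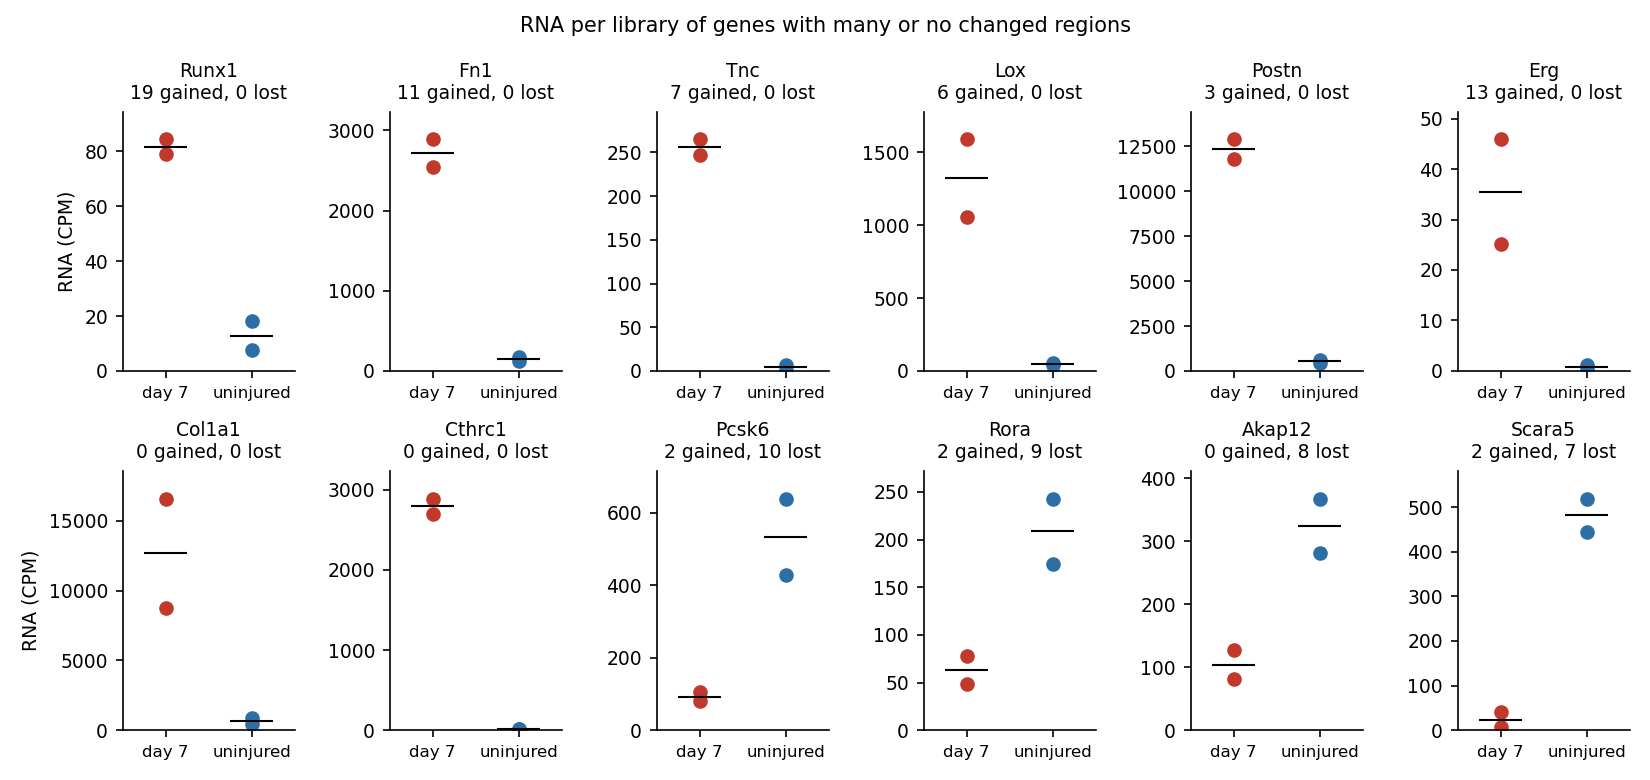
RNA level (vertical axis, CPM, each panel with its own scale from 0) in the 2 day 7 libraries (left) and the 2 uninjured libraries (right) of 12 genes, with the mean as a line and the number of gained and lost regions above each panel. All 8 genes from Runx1 to Cthrc1 were higher at day 7 in both libraries, Col1a1 and Cthrc1 without a gained region, and Pcsk6, Rora, Akap12 and Scara5 were lower in both. All 12 passed in RNA, so the panels show a choice of called genes. Over all genes tested 4.39% were higher and 2.76% lower. Genes with as many regions that did not pass, such as Fgfr2 and Arih1, are not shown.

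Of 34 collagen and matrix glycoprotein genes 24 were higher and 1 lower, against 4.39% and 2.76% of all genes. Their 673 regions held 74 gained (11%) and 11 lost (1.6%), against 12.4% and 3.16% of all regions, so the gained share of regions was near that of all regions. Here and for the lists below, all regions include those assigned to no gene. Of the regions assigned to tested genes 11.2% were gained and 2.94% lost. A gained region lay at 22 of the 34 genes, against 36.7% of coding genes with a region. With equal peak numbers they held 31 gained and 31 lost. The RNA counts of each gene list below are likewise to be set beside 4.39% and 2.76% of all genes. All the lists were chosen with earlier results of these data known, so their counts are descriptions. Fibronectin (Fn1), which links cells to the matrix, had 11 gained and 0 lost of 31 regions, or 5 gained and 0 lost with equal peak numbers. Its RNA stood at 2550 and 2890 CPM at day 7, against 175 and 124 CPM, a log2 fold change of 4.18 ± 0.25 (SE; edgeR adjusted p = 3.3e-06). Col5a1, a chain of the collagen that starts fibrils, also had 11 gained regions, of 57, but only 1 with equal peak numbers, and 339 and 465 CPM at day 7, against 87.6 and 61.0 CPM.

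Tenascin C (Tnc), a glycoprotein of wound matrix, had 7 gained and 0 lost of 35 regions, one of them 278 bases from the gene with a fold enrichment of 8.05 and 6.70. Its RNA stood at 247 and 265 CPM at day 7, against 7.14 and 1.55 CPM. Periostin (Postn), a matricellular protein of activated fibroblasts, had 3 gained of 22 regions, of which 2 were gained with equal peak numbers, and 11800 and 12900 CPM at day 7, against 630 and 431 CPM. Col3a1 had 2 gained and 1 lost of 21 regions, but 1 gained and 4 lost with equal peak numbers. Col14a1 had 6 gained and 1 lost of 36, but 2 gained and 5 lost with equal peak numbers. Col1a1, which encodes the main collagen of scar, had 0 gained and 0 lost among 8 regions, of which 6 were open in all 4 lists, and stood at 8740 and 16600 CPM at day 7, against 903 and 414 CPM. Cthrc1, a secreted protein gene of injury fibroblasts, had neither kind among 2 regions and 2700 and 2890 CPM at day 7, against 15.5 and 10.2 CPM. In the same list Spon1, an adhesion protein gene, had 3 gained and 3 lost of 28 regions and did not pass in RNA.

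Crosslinking and processing genes of collagen had 28 gained and 7 lost of 224 regions (12.5% and 3.1%), but 12 gained and 13 lost with equal peak numbers. In RNA 7 of 26 (26.92%) were higher and 1 (3.85%) lower, against 4.39% and 2.76% of all genes. Lysyl oxidase (Lox), which forms covalent crosslinks, stood out with 6 gained of only 9 regions, 4 of them gained with equal peak numbers. The tallest had a fold enrichment of 21.74 and 19.37 and was present in all 6 lists of other times, and Lox RNA stood at 1590 and 1060 CPM at day 7, against 54.7 and 38.6 CPM (log2 fold change 4.83 ± 0.32, SE; edgeR adjusted p = 6.7e-06). P4ha3, a prolyl hydroxylase subunit gene, had 4 gained of 7 regions, the tallest at 12.88 and 13.90, and 132 and 91.8 CPM at day 7, against 3.09 and 2.84 CPM. Plod2, a lysyl hydroxylase gene, had 3 gained of 20 regions, 0 of them with equal peak numbers, and 322 and 306 CPM at day 7, against 90.4 and 85.7 CPM. The procollagen C-proteinase enhancer gene Pcolce2 had 3 lost of 12 regions and was the member that was lower, at 156 and 71.1 CPM at day 7, against 319 and 456 CPM, a call lost without day 7 replicate 2 or uninjured replicate 2. The procollagen protease gene Adamts2 had 6 gained and 1 lost of 51 regions, but 2 gained and 2 lost with equal peak numbers, and did not pass.

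Contractile and myofibroblast genes had 54 gained and 8 lost of 318 regions (17% and 2.5%), and 10 of 24 were higher and 0 lower in RNA. With equal peak numbers they had 32 gained and 17 lost. Palladin (Palld), an actin-associated scaffold protein, had 11 gained and 0 lost of 37 regions. One of these, at 61644933 to 61649476 on chromosome 8, was among the tallest gained regions ranked below. It had a fold enrichment of 24.2 and 20.4 and a peak in all 6 lists of other times. Palld RNA stood at 250 and 215 CPM at day 7, against 51.0 and 17.3 CPM. The actin crosslinker gene Actn1 had 10 gained of 39 regions and 161 and 166 CPM at day 7, against 35.0 and 23.4 CPM. Non-muscle myosin (Myh9), with 6 gained of 25 regions, passed in RNA, a call lost without 3 of the 4 libraries. Tropomyosin 1 (Tpm1), with 6 gained of 11, missed the threshold at 476 and 461 CPM, against 301 and 249 CPM (edgeR adjusted p = 0.062). Smooth muscle actin (Acta2) had 2 gained and 2 lost of 8 regions, or 1 gained and 2 lost with equal peak numbers. Its RNA stood at 642 and 950 CPM at day 7, against 191 and 91.8 CPM, a call lost without day 7 replicate 2 or uninjured replicate 2.

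Resting fibroblast genes were the reverse, but this list was chosen with earlier results of these data known, so its direction is a description and no test. Their 437 regions held 17 gained (3.9%) and 64 lost (14.6%), against 12.4% and 3.16% of all regions, and 9 gained and 79 lost with equal peak numbers. Of the 31 genes 0 were higher and 17 lower in RNA, and of the 22 with a lost region 12 were lower. Of these 64 lost regions 38 and 37 had a peak in the day 3 lists, 10 and 18 in the week 2 lists, 23 and 14 in the week 4 lists, and 0 in all 6. Over all lost regions the shares were 58.2% and 51.7% at day 3, 22% and 27.4% at week 2, and 28.3% and 22.4% at week 4. After Pcsk6 and Scara5, Ebf2, an early B-cell factor family transcription factor, had 5 lost and 1 gained of 56 regions and 144 and 129 CPM at day 7, against 283 and 331 CPM, a call lost without day 7 replicate 2 or uninjured replicate 2. Dermatopontin (Dpt), a matrix protein of resting fibroblasts, had 4 lost of 24 regions while its RNA did not pass, at 2040 and 2000 CPM at day 7, against 2180 and 2390 CPM, close levels that did not overlap. The platelet-derived growth factor receptor gene Pdgfra had 4 lost and 0 gained of 20 regions and 254 and 147 CPM at day 7, against 730 and 778 CPM (log2 fold change −1.91 ± 0.31, SE; edgeR adjusted p = 0.0032). Gelsolin (Gsn) which severs actin filaments, had 3 gained and 3 lost of 16 regions and 2960 and 1970 CPM at day 7, against 30100 and 28500 CPM, a call lost without 3 of the 4 libraries.

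Small leucine-rich proteoglycan genes, whose products bind collagen fibrils, had 2 gained and 8 lost of 70 regions (2.9% and 11.4%), and 1 gained and 11 lost with equal peak numbers. Decorin (Dcn) carried 5 of the 8 and stood at 7860 and 6870 CPM at day 7, against 19800 and 24100 CPM, a call lost without day 7 replicate 2. Fibromodulin (Fmod) and asporin (Aspn) had 2 and 1 lost regions and 0 gained, but higher RNA. Aspn stood at 4490 and 4710 CPM at day 7, against 1170 and 1030 CPM, and the call for Fmod was lost without 3 of the 4 libraries. Tcf21 itself had 1 gained and 1 lost of 8 regions and 12 and 9.52 CPM at day 7, against 23.1 and 31.6 CPM, short of the threshold (edgeR adjusted p = 0.18).

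Among mesenchymal transcription factors 73 gained and 16 lost of 598 regions (12.2% and 2.7%) stood near the shares of all regions, and 32 were gained and 27 lost with equal peak numbers. In RNA 2 of 36 (5.56%) were higher and 2 (5.56%) lower, against 4.39% and 2.76% of all genes. After Runx1, the most gained regions lay at Mrtfb, a coactivator of SRF (9 of 29), Runx2 (6 of 30) and Runx3 (5 of 24), none of which passed. Runx3 had RNA in a single library, at 1.33 CPM in day 7 replicate 2. Tbx20, a T-box factor of the heart, had 5 lost and 0 gained of 17 regions and 204 and 154 CPM at day 7, against 267 and 323 CPM, which did not pass. Zeb1 had 4 lost and 2 gained, but 1 lost and 1 gained with equal peak numbers, and Prrx1 had 2 lost and 0 gained. Meox1, a homeobox factor of activated fibroblasts, had 2 gained and 0 lost of 21 regions and close levels that did not overlap, at 300 and 345 CPM at day 7, against 276 and 254 CPM, which did not pass.

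AP-1 and immediate-early genes had 45 gained and 2 lost of 245 regions (18.4% and 0.8%), and 24 gained and 10 lost with equal peak numbers. In RNA 0 of 27 were higher and 2 (7.41%) lower, against 4.39% and 2.76% of all genes. The median log2 fold change was −0.42. Of these 45 gained regions 40 and 40 had a peak in the day 3 lists, and 10 and 12 in the week 4 lists. Over all gained regions the shares were 75.0% and 77.6% at day 3 and 31.6% and 37.1% at week 4. Bach2 and Bach1, which encode basic leucine zipper repressors, had 11 of 53 and 9 of 29 gained. Fos had 4 of 15 and stood at 4500 and 6240 CPM at day 7, against 5930 and 7920 CPM. Atf3 had 3 of 13 and stood at 321 and 397 CPM at day 7, against 676 and 1090 CPM, short of the threshold (edgeR adjusted p = 0.060). Jun had 1 gained and 1 lost of 10 regions.

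Genes of TGF-beta, BMP and activin signalling had 26 gained and 20 lost of 451 regions (5.8% and 4.4%), but 12 gained and 36 lost with equal peak numbers. In RNA 4 of 30 (13.33%) were higher and 3 (10.0%) lower, against 4.39% and 2.76% of all genes. The type I receptor gene Tgfbr1 had 5 lost and 0 gained of 31 regions and did not pass. The coreceptor gene Tgfbr3 (betaglycan) had 3 lost and 2 gained of 44 and 25 and 17.2 CPM at day 7, against 152 and 149 CPM (log2 fold change −2.83 ± 0.42, SE; edgeR adjusted p = 0.0017). Among ligand traps, follistatin (Fst) had 3 gained of only 4 regions and was higher, a call lost without any 1 of the 4 libraries, and Bmper had 4 gained and 3 lost of 49. The latent TGF-beta binding protein gene Ltbp2 had 2 gained and 0 lost of 32 regions, but 1 gained and 2 lost with equal peak numbers. Its RNA stood at 282 and 417 CPM at day 7, against 16.7 and 9.27 CPM. Wnt genes had 29 gained and 8 lost of 249 regions (11.6% and 3.2%), near the 12.4% and 3.16% of all regions, and 15 gained and 13 lost with equal peak numbers. Of 22 tested, 5 were higher and 1 lower. The Wnt modulator gene Sfrp2 had 3 gained of 14 regions and 2050 and 2000 CPM at day 7, against 84.4 and 132 CPM, while the effector gene Tcf7l2, with 5 gained of 44, did not pass.

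Cytokine and chemokine genes had 29 gained and 8 lost of 189 regions (15.3% and 4.2%), or 19 gained and 16 lost with equal peak numbers. In RNA 6 of 28 (21.43%) were higher and 2 (7.14%) lower, against 4.39% and 2.76% of all genes. Spp1 led with 5 gained and 0 lost of 9 regions. The eotaxin gene Ccl11 had 2 lost of 8 regions and 7.38 and 1.75 CPM at day 7, against 104 and 141 CPM (log2 fold change −4.73 ± 0.69, SE; edgeR adjusted p = 0.0019). The colony-stimulating factor gene Csf1 had 3 gained and 0 lost of 16 regions, but 2 gained and 2 lost with equal peak numbers, and did not pass. Genes of matrix proteases and their inhibitors had 20 gained and 15 lost of 193 regions (10.4% and 7.8%), but 11 gained and 20 lost with equal peak numbers. In RNA 3 of 23 (13.04%) were higher and 1 (4.35%) lower, against the same shares of all genes. Adam12, a metalloprotease gene of activated mesenchymal cells, had 5 gained and 0 lost of 34 regions and 28.8 and 27.6 CPM at day 7, against 1.97 and 1.55 CPM. Adamts5, an aggrecanase gene, had 2 lost and 1 gained of 11 regions and 156 and 116 CPM at day 7, against 556 and 679 CPM. The inhibitor gene Timp2 had 4 lost and 0 gained of 15 regions and did not pass.

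Cartilage and tendon matrix genes had 31 gained and 8 lost of 183 regions (16.9% and 4.4%), or 15 gained and 11 lost with equal peak numbers, and 8 of 25 were higher and 0 lower. Sox5 and Sox6, chondrocyte transcription factors, had 7 and 3 gained regions and 2 lost regions each, and did not pass in RNA. Col2a1, the main cartilage collagen gene, had 2 gained of 4 regions, 0 of them with equal peak numbers, and 16 and 56.5 CPM at day 7 with no counts in either uninjured library, a call lost without 3 of the 4 libraries. The matrifibrocyte genes Comp, Cilp2 and Chad had few merged regions of any kind, too few to set beside the shares of all regions. Comp had 0 among 1 region, Cilp2 0 among 3 and Chad 1 gained of 2. Comp was higher, at 378 and 702 CPM at day 7, against 86.3 and 61.4 CPM, a call lost without 3 of the 4 libraries, and Chad did not pass, at 7.77 and 39.5 CPM at day 7, against 70.0 and 54.2 CPM. Cell cycle genes had 9 gained and 0 lost of 89 regions, a gained share of 10.1% that was near the 12.4% of all regions, and 2 gained and 1 lost with equal peak numbers. Of 35 such genes 10 were higher and 0 lower in RNA, against 4.39% and 2.76% of all genes.

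**Figure D5:**
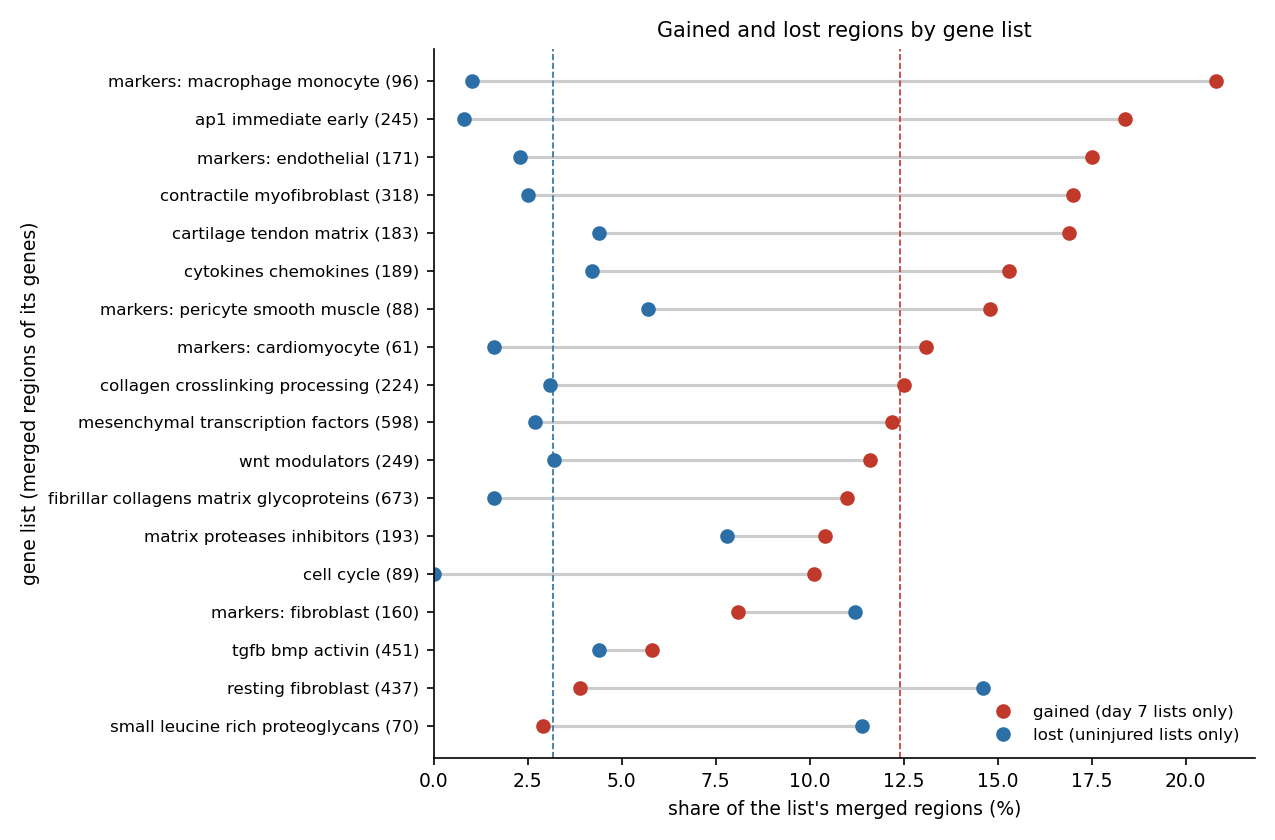
Share of merged regions that were gained or lost (horizontal axis, %) for each gene list, with its number of regions in brackets (vertical axis). Dashed lines give the shares over all regions, 12.4% gained and 3.16% lost, which include regions assigned to no gene. With all deposited peaks, resting fibroblast genes, small leucine-rich proteoglycans and fibroblast markers had more lost than gained regions, and macrophage markers had the highest gained share at 20.8%. With equal peak numbers, which are not shown, macrophage markers held 7 gained and 3 lost.

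Of 20 macrophage and monocyte markers 17 were higher in RNA and 0 lower, and their summed level was 1929 and 3466 CPM at day 7, against 79.08 and 93.34 CPM in uninjured cells. At day 7, 0 and 1 of them were at 0 counts, against 2 and 3 in uninjured cells. Their 96 regions held 20 gained (20.8%) and 1 lost (1.0%), or 7 gained and 3 lost with equal peak numbers. The leukocyte phosphatase gene Ptprc (CD45) had 4 gained of 8 regions, including one that holds starts of the gene, with an RNA call lost without day 7 replicate 2, the fractalkine receptor gene Cx3cr1 3 of 16, and Spi1, which encodes PU.1, 2 of 9. C1qa had 71.5 and 163 CPM at day 7, against 0.373 and 1.82 CPM. The part of such cells in the gained regions was not tested. Of these 20 gained regions 13 and 15 had a peak in the day 3 lists and 3 and 8 in the week 4 lists. Over all gained regions the shares were 75.0% and 77.6% at day 3 and 31.6% and 37.1% at week 4.

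Endothelial markers held 30 gained and 4 lost of 171 regions (17.5% and 2.3%), or 10 gained and 3 lost with equal peak numbers. Their summed RNA level was 1239 and 1599 CPM at day 7, against 932.8 and 854.0 CPM, with 7 of 16 higher and 1 lower. Erg carried 13 of the 30 gained regions. The cadherin gene Cdh5 had 4 of 17 gained and 42.4 and 47.8 CPM at day 7, against 13.8 and 5.52 CPM, a call lost without day 7 replicate 2 or uninjured replicate 2. The angiopoietin receptor gene Tek had all 4 lost regions of the list and 115 and 92.1 CPM at day 7, against 289 and 222 CPM, a call lost without day 7 replicate 2 or uninjured replicate 1, so endothelial genes did not move together. Pericyte and smooth muscle markers held 13 gained and 5 lost of 88 regions, of which Rgs5 had 6 gained, but 6 gained and 9 lost with equal peak numbers, and summed to 956.7 and 1416 CPM at day 7, against 1356 and 759.8 CPM, so the groups overlapped. Cardiomyocyte markers held 8 gained and 1 lost of 61 regions, or 2 gained and 1 lost with equal peak numbers, and summed to 91.66 and 129.4 CPM at day 7, against 199.7 and 246.7 CPM. The 10 fibroblast markers summed to 56820 and 66930 CPM at day 7, against 64680 and 66120 CPM, so the libraries of both groups carried the RNA of fibroblasts. Behind these sums 4 of the 10 were higher, Postn, Col1a1, Col1a2 and Col3a1, and 3 lower, Dcn, Gsn and Pdgfra.

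Changed regions were ranked by height among those also changed with equal peak numbers. Only regions within 50 kb of a coding gene and outside chromosome 18 were ranked, 1 region for each gene. The tallest of these lay near genes of which 1 was higher and 1 lower in RNA, Palld and Camk1d, while the other 10 did not pass or were not tested. The tallest gained region, at 5379034 to 5379384 on chromosome 2 within Camk1d, a calcium-dependent kinase gene, was only 351 bases wide and had a fold enrichment of 60.1 and 67.5. Camk1d RNA was lower, at 3.30 and 2.59 CPM at day 7, against 42.5 and 36.1 CPM (log2 fold change −3.73 ± 0.51, SE; edgeR adjusted p = 0.0010). The next, 362 bases wide and 27494 bases from the pseudouridine synthase gene Rpusd4, had 40.8 and 37.2. Regions within Skap1 and near Lpcat1 and Sspo followed, with fold enrichments of 19.9 to 22.8. None of these 4 genes was called in RNA, Sspo for want of counts. The region in Palld described above lay among them (24.2 and 20.4), and Palld was higher in RNA. All of these gained regions had a peak in all 6 lists of other times except that in Camk1d, which was in both lists of day 3 and week 2 and in neither of week 4.

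The tallest lost region, at 99733231 to 99735790 on chromosome 7, held the start of the olfactory receptor gene Olfr520 and had a fold enrichment of 35.3 and 42.5 in the uninjured lists and a peak in all 6 lists of other times. It was followed by regions near the retinal matrix gene Impg2 (29.0 and 18.5), near Gm8369 (20.6 and 17.5), within the cardiac T-box factor gene Tbx5 (16.9 and 19.6), near the deubiquitinase gene Mindy4 (16.9 and 18.3) and near the neurexin gene Nrxn2 (18.1 and 15.4). Olfr520 and Impg2 had no counts in any of the 4 libraries. Tbx5 had 0 CPM in both day 7 libraries, against 6.98 and 1.5 CPM in uninjured cells, and did not pass (edgeR adjusted p = 0.21). Its lost region was absent from both week 4 lists. The RNA of Mindy4 and Nrxn2 did not pass either.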

How the data were processed

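The authors deposited 1 narrowPeak list for each ATAC-seq library and a table of expected counts per Ensembl gene for the RNA-seq libraries, on mm10 (GRCm38). The submitters' processing notes name Trim Galore 0.6, FastQC, STAR 2.5.3a, Bowtie2 2.3, MACS2 and DESeq2, without their roles or settings. Each deposited list gives, per peak, a fold enrichment, a −log10 p, a −log10 q, a score that is 10 times the −log10 q cut to a whole number, and the summit offset. No replicate peaks were pooled in the lists, one of which belongs to each library.

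Peaks on chromosomes 1 to 19, X and Y of the 4 lists were merged wherever they shared at least 1 base. For equal numbers, the 63901 peaks of highest fold enrichment were kept in each list. Peaks tied at the lowest fold kept were taken by chromosome name and position (1184 of 4195 and 2806 of 4687 tied peaks in the day 7 lists, 560 of 560 and 1028 of 3418 in the uninjured lists), so counts for single genes with equal numbers rest in part on that order. Regions were assigned to the protein-coding gene they lay in, or to the one whose nearer end was within 50 kb. The nearest gene start had been planned, but the deposited table gives no strand. Motifs were likewise searched in 250 bases upstream of RefSeq starts (GRCm38.p6) in place of peak summits, since no genome sequence was used here.

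Expected counts (16986647 to 19442572 per library of the 4 compared, as deposited) were rounded. They were fitted with edgeR 4.0.16 (TMM, filterByExpr, robust quasi-likelihood) in R 4.3.3 over all 10 RNA libraries, with 14968 of 25746 genes tested. Adjustment followed Benjamini-Hochberg, at a threshold of 0.05, and 5 degrees of freedom were left for the spread. Calls were repeated with DESeq2 1.42.0. CPM values use the effective library size. Named genes were those with the most gained or lost regions overall and in each gene list, those with the highest regions, and a set of fibroblast and scar genes. The regions, gene lists and genes were chosen with earlier results of these data known.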

Additional observations from a re-analysis of the deposited data

How the results depend on the processing

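Gained regions numbered 14170 and lost regions 3612. With equal peak numbers they numbered 6985 and 6750, or 6959 and 6751 with tied peaks taken in the opposite order. Ranking by −log10 q in place of fold enrichment gave the same counts. The peaks of a list are ranked alike by both, so this was no further check. With only peaks of −log10 q of 5 or more 9054 were gained, and where peaks had to cover at least 50% of a region 5969 were lost. Leaving out 1 library at a time gave 16152 to 28684 gained and 4304 to 9580 lost, since 1 list fewer then has to hold, or to lack, a peak. In RNA, 657 genes were higher and 413 lower. These counts were 1119 and 881 by DESeq2's Wald test, 993 and 853 with no filter on low counts, 393 and 242 with only the 4 libraries, and 230 to 598 and 82 to 563 without 1 library. The lowest came without day 7 replicate 2 (230 higher, 82 lower), and they were 405 and 199 without uninjured replicate 1 and 252 and 110 without uninjured replicate 2. Of genes with gained regions only, 280 were higher, against 465 by DESeq2, 167 with equal peak numbers and 123 to 257 without 1 library. Of genes with lost regions only, 85 were lower, against 156 by DESeq2, 164 with no filter, 51 with only the 4 libraries, 157 with equal peak numbers and 24 to 89 without 1 library. Apart from the construction of these alternatives, the cause was not tested. Among gene lists, which had no alternative other than equal peak numbers, those of TGF-beta signalling, proteases, pericyte markers and collagen crosslinking turned to more lost than gained regions.

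With the replicate number as a block, in a fit of only the 4 libraries, 648 genes were higher and 532 lower. Without the block these 4 libraries gave 393 and 242. Of genes with gained regions only 294 were higher with the block, against 190 without it. Of genes with lost regions only 112 were lower, against 51. Replicate 1 of day 7 and of uninjured cells did not deviate together (r = −0.001 across genes, which are not independent). This cannot show whether libraries of the same number share more than that number, and the labels do not say. Leaving out chromosome Y, reversing the order of ties, and assigning regions by the nearer gene end alone were alternatives chosen after seeing the data. The first gave 14147 gained regions, and the last 290 higher genes among those with gained regions only. AP-1 shares in wider windows and away from starts were not run. The number of peaks called limits which low regions can be compared.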

Other observations

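Of 1005 RefSeq miRNA hairpins, 292 lay in a merged region, 10 of them in gained and 4 in lost regions, while 225 lay in regions open in all 4 lists. Of all merged regions 12.4% were gained and 3.16% lost. Mir34a, a p53-responsive miRNA gene on chromosome 4, and Mir138-2 on chromosome 8 lay in gained regions that were not gained with equal peak numbers, with a lower fold enrichment of 3.22 and 3.72. Mir770 and Mir673 lay in lost regions on chromosome 12 that were also lost with equal peak numbers. Their lower fold enrichments were 2.81, the lowest of any peak of uninjured replicate 1, and 4.38. Both miRNA genes are in the imprinted cluster that holds Rtl1, one of the genes with the most lost regions. No levels of miRNAs were analysed here.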
